A study of Mus musculus with 8 samples.

Results

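The Hox genes encode homeodomain transcription factors that lie side by side in 4 clusters, Hoxa, Hoxb, Hoxc and Hoxd. Genes of the same number in different clusters are paralogues, and within a cluster the low numbers are used toward the head and the high numbers toward the tail and the tips of the limbs. Adult fibroblasts and vascular smooth muscle cells keep part of this code as a record of where in the body they came from. The carotid wall is built largely by neural crest cells of the pharyngeal arches, where low-numbered Hox genes are used.

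Members were all probes whose platform gene symbol is Hoxa, Hoxb, Hoxc or Hoxd followed by a number. There were 50 such probes of 25697 on the array, and they stand for 38 Hox genes. The symbols alone decided which probes are members, but the family was chosen with earlier results of these data known.

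The arrays were made from primary carotid artery smooth muscle cells, taken from male C57bl6 mice. In the group called rescued here, PMCA4 knockout cells had been electroporated with cDNA of PMCA4a, a splice form of the calcium pump that Atp2b4 encodes; the other group was the PMCA4 knockout cells themselves. All cells of both groups thus carried the knockout, were synchronised by serum, then received serum and PDGF-BB and were taken in late G1/S. Each group had 4 arrays, no knockout cells electroporated with another cDNA were analysed here, and the effects of electroporation and of PMCA4a cannot be told apart. Nothing in the labels says that replicates were separate cultures or animals, so the p-values reflect only how far these samples vary, and that variation may be technical.

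A probe counted as detected on an array when its deposited detection p was under 0.05, and between 12223 and 12873 probes were detected per array. Rescued replicate 3 stood furthest from its own group, with a mean correlation of 0.9881 with the other rescued arrays against 0.9919 to 0.9928 for those arrays and 0.9951 to 0.9957 for the knockout arrays. Atp2b4 did not separate the groups: 2 of its 3 probes were detected on no array, and the third had a log2 intensity of 5.54 ± 0.22 in rescued cells and 5.51 ± 0.24 in knockout cells (SD, n = 4 each; limma adjusted p = 0.911). Where these probes fall relative to the deletion and the cDNA was not analysed here, so they check no label. Of 12 smooth muscle markers on the array, 8 were measured, among them Acta2, Tagln and Smtn, but Cnn1, Lmod1 and Synpo2 were detected on no array and Myh11 on 1 rescued array. Of the endothelial list Pecam1 and Cdh5 were detected on no array, but Flt1, Plvap and Kdr were detected on all 8. Of the leukocyte list Ptprc, Adgre1 and Itgam were detected on no array, but Lyz1, Cd14, Cd53 and Aif1 were detected on all 8.

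Hoxd4 and Hoxd8 are the genes in which the groups differed most among the members, so the sequences around their starts are shown. Each window holds 250 bases before and 50 after the annotated start, from RefSeq on GRCm38.p6, plus strand: chr2:74721728-74722027 for Hoxd4 and chr2:74704365-74704664 for Hoxd8. Capitals mark AGGTCA, the core motif of retinoic acid and other nuclear receptors, and TTTATG, a motif of the CDX homeodomain factors, each on either strand.
Hoxd4: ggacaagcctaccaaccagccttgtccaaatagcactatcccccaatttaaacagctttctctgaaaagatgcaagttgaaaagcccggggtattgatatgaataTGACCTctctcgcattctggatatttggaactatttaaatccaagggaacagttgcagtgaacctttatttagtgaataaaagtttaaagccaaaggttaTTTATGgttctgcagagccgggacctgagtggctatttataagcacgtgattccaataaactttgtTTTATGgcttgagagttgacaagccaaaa
Hoxd8: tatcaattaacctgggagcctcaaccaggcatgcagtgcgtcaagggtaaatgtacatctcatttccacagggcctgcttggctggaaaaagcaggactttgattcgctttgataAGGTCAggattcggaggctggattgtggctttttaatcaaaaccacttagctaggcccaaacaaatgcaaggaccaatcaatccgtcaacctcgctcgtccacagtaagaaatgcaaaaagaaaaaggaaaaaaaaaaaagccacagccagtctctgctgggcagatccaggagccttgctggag

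Both windows held AGGTCA, each at 1 place. At least 1 match was present in 29.2% of the 24 windows of 22 Hox genes in the table and in 16.3% of all 32851 windows. TTTATG stood at 2 places in the Hoxd4 window and nowhere in that of Hoxd8, and at least 1 match was in 20.8% of Hox windows and 11.9% of all windows. TGATNNAT, a motif of HOX proteins bound together with PBX, was in neither window, in 16.7% of Hox windows and in 8.8% of all. The motifs did not overlap each other in these windows. Hoxd4 and Hoxd8 had a GC content of 39.7% and 46.7% with 4 and 6 CpG dinucleotides, where the median Hox window had 57.7% and 14 and the median of all windows 52.7% and 7. Low GC content was not particular to these genes. The Hoxb8 window had 42.3% with 13 CpG, that of Hoxa2 45.7% with 9 and 1 window of Hoxd11 45.7% with 4. These are matches of letters and show no binding.

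Many Hox genes were below detection in both groups. Of the 38 genes, 17 were detected on no array, and 8 had a probe detected on all 8 arrays. By probe, 24 of the 50 Hox probes were detected on at least 1 array and 15 on at least 4. Of all 25697 probes, 14419 were detected on at least 1 array and 12658 on at least 4. The 26 probes detected nowhere had normalized log2 values from 4.39 to 5.21, and their group means differed by -0.20 to 0.13. Detection was densest in the low and middle numbers: of 7 genes in groups 1 to 3, 3 were kept for testing, of 15 in groups 4 to 8, 8 were, and of 16 in groups 9 to 13, 3 were. Kept means detected on at least 4 of the 8 arrays. The genes detected nowhere were Hoxa6, Hoxa9, Hoxa10, Hoxa11, Hoxb1, Hoxb8, Hoxb9, Hoxb13, Hoxc5, Hoxc6, Hoxc9, Hoxc11, Hoxc12, Hoxd1, Hoxd9, Hoxd10 and Hoxd12.

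**Figure D1:**
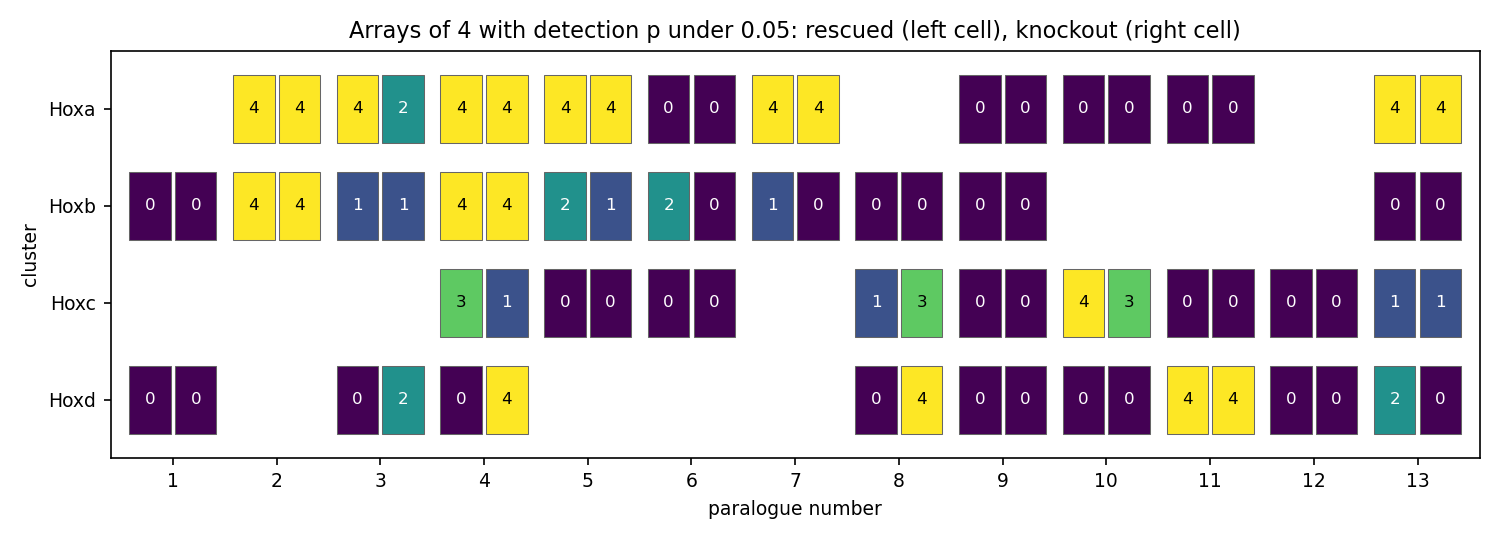
For each Hox gene, by cluster (rows) and paralogue number (columns), the number of arrays out of 4 on which its most often detected probe had a detection p under 0.05, rescued cells in the left cell and knockout cells in the right cell; positions with no cell have no probe here. Hoxd4 and Hoxd8 read 0 and 4, while Hoxa2, Hoxa4, Hoxa5, Hoxa7, Hoxb2 and Hoxb4 read 4 and 4.

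The per-array totals did not separate the groups: 15, 16, 14 and 14 Hox probes were detected on the rescued arrays and 14, 15, 18 and 13 on the knockout arrays. The difference lay in which genes these were.

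Hoxd4 and Hoxd8 were the members that fell. Hoxd4, which in the mouse patterns the lower hindbrain and the upper neck vertebrae and is a known target of retinoic acid, had log2 intensities of 4.54, 4.58, 4.49 and 4.52 in rescued cells, against 7.35, 7.22, 6.90 and 6.83 in knockout cells. The groups did not overlap, and the gene was detected on 0 rescued and 4 knockout arrays. It was at least 3.66-fold lower in rescued cells, a bound set by the lowest level at which probes were detected (measured log2 means 4.53 ± 0.04 and 7.08 ± 0.25, SD, n = 4 each; limma adjusted p = 5.14e-07). In the deposited units its signal was 89.7, 91.3, 88.6 and 89.5 in rescued cells and 238, 240, 200 and 173 in knockout cells. The detection p was at least 0.605 on every rescued array and 0 on every knockout array.

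Hoxd8, a gene of the trunk region, also fell. Its log2 intensities were 4.44, 4.53, 4.46 and 4.65 in rescued cells, against 6.75, 6.74, 6.49 and 6.90 in knockout cells. Again the groups did not overlap, and again 0 rescued and 4 knockout arrays detected it. It was at least 2.86-fold lower in rescued cells (measured log2 means 4.52 ± 0.09 and 6.72 ± 0.17, SD, n = 4 each; adjusted p = 4.68e-07). Its signal was 82, 88.3, 86.1 and 96.8 in rescued and 184, 194, 171 and 177 in knockout cells. Both genes are dim, and the size of the difference depends on the background: without background correction the log2 differences were -1.14 for Hoxd4 and -0.96 for Hoxd8, under the bounds given here, with adjusted p of 1.89e-07 and 3.23e-07. Both probes passed the filter on the strength of the knockout arrays, so a fall was the only call open to them. Without rescued replicate 3 the log2 differences were -2.53 for Hoxd4 and -2.18 for Hoxd8. In cultures measured as a whole, fewer cells that express a gene and less of its RNA per cell cannot be told apart.

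**Figure D2:**
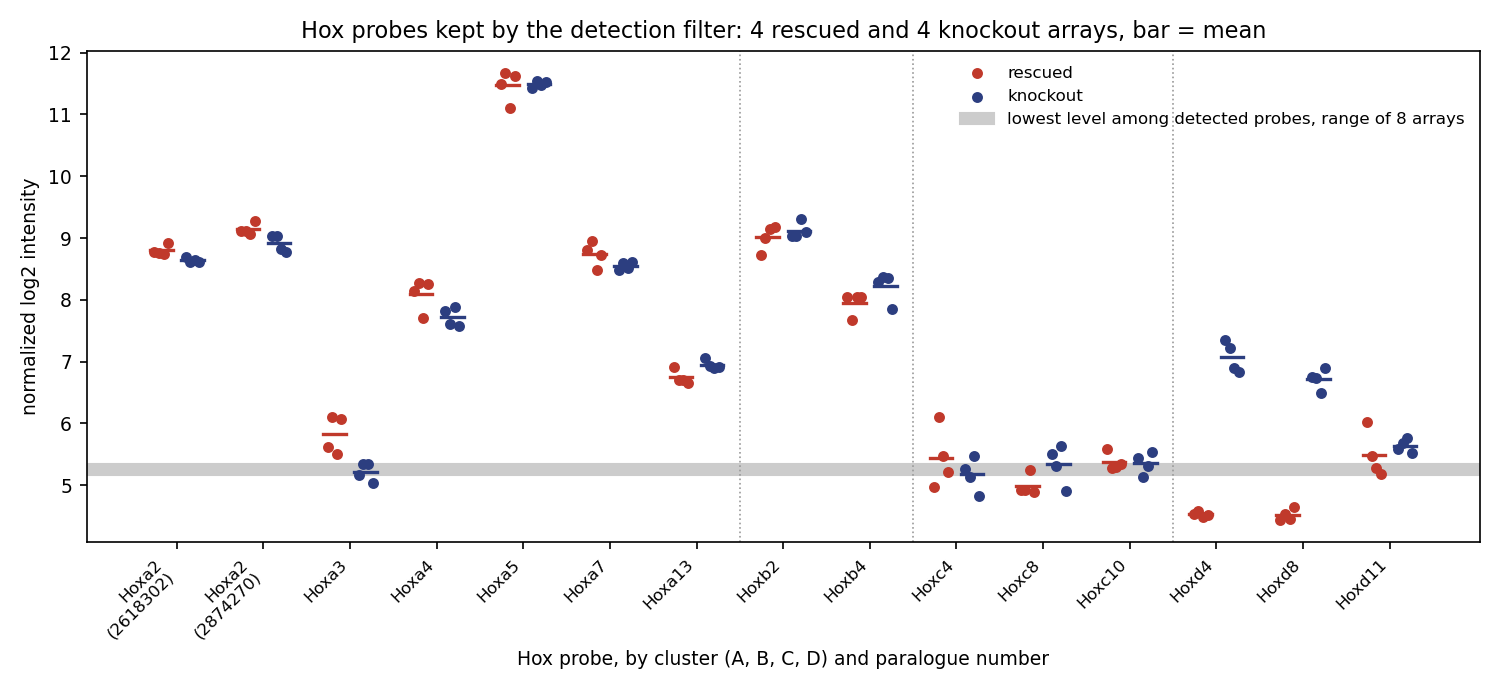
Normalized log2 intensity of the 15 kept Hox probes on the 4 rescued (red) and 4 knockout (blue) arrays, with a bar at each group mean and a grey band for the lowest level among detected probes. The rescued points of Hoxd4 and Hoxd8 lie below the band and the knockout points above it, from 6.49 upward, while the groups lie within 0.60 of each other at the other probes.

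The other Hoxd genes were near or below the limit of detection in knockout cells, with group means of at most 5.64, so a fall as large as that of Hoxd4 or Hoxd8 could not be measured in them. Hoxd3, the neighbour of Hoxd4 in the cluster and a gene of the neck vertebrae, had log2 intensities of 4.65, 4.92, 4.77 and 4.95 in rescued cells, against 5.20, 5.34, 5.36 and 5.31 in knockout cells. With 0 rescued and 2 knockout arrays detecting it, Hoxd3 was not kept, although its groups were apart. With every probe tested, its log2 difference was -0.48 with an adjusted p of 0.00246. Hoxd11, a limb and kidney gene, was detected on all 8 arrays and averaged 5.49 ± 0.38 in rescued cells and 5.64 ± 0.11 in knockout cells, a difference of -0.15 that did not pass (adjusted p = 0.512). Its call depended on 1 array: without rescued replicate 1 the difference was -0.33 with an adjusted p of 0.0312. Hoxd13, which shapes the digits, was detected on 2 rescued and 0 knockout arrays, with means of 5.20 ± 0.23 and 5.03 ± 0.03.

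Little could be measured right beside the Hoxd cluster. The 4 nearest protein-coding genes with a probe on each side of it had 16 probes, of which 7 were tested, with log2 differences from -0.62 to 0.33. Nfe2l2, the NRF2 regulator of antioxidant genes, was the 1 that fell, with 7.87 ± 0.19 in rescued and 8.49 ± 0.12 in knockout cells (adjusted p = 0.00152). Atp5g3, a subunit of the mitochondrial ATP synthase, averaged 15.05 ± 0.07 in rescued cells and 14.88 ± 0.03 in knockout cells (adjusted p = 0.062). The nearest genes gave no test: Evx2, the homeobox gene next to Hoxd13, Lnpk and Hnrnpa3 were detected on no array, and Mtx2 on 2 rescued and 1 knockout arrays. The tested probes thus belong to Atf2, Atp5g3, Nfe2l2 and Agps, further out. The median difference of the 972 kept probes of chromosome 2 was 0.02, and 6 of them were as low as Hoxd8 or lower, Hoxd8 and Hoxd4 included.

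**Figure D3:**
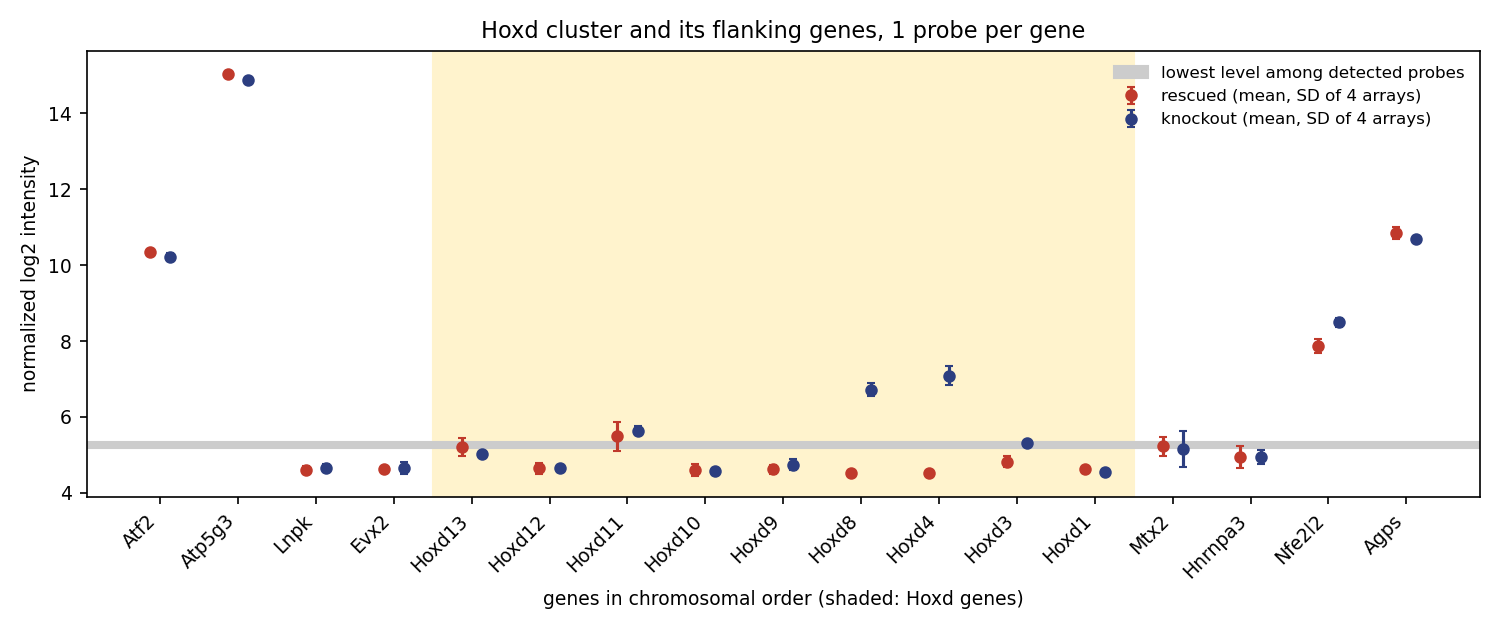
Normalized log2 intensity, as mean and SD of 4 arrays, of the Hoxd genes (shaded) and the 4 nearest genes on each side in the order of the chromosome, with 1 probe per gene, rescued cells in red left of knockout cells in blue. Hoxd8 and Hoxd4 separate by more than 2 log2 units, with Hoxd9 (4.62 and 4.74) and Hoxd1 (4.62 and 4.55) below detection in both groups.

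Set against all probes, calls were not frequent among the members. Of the 15 kept Hox probes 1 was higher and 2 were lower in rescued cells, which is 20.0% of them, where 38.8% of all 12658 kept probes were called, 20.0% higher and 18.7% lower. At 5 of the 15 the rescued and knockout values were fully apart, against 38.8% of all probes. The median difference was -0.02 over the kept Hox probes and 0.00 over all. Falls of at least 2-fold with an adjusted p under 0.05 were seen at 2.71% of all probes and rises of that size at 2.61%.

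In the Hoxa cluster 1 of the 7 kept probes passed the test, as higher in rescued cells, and the median difference of the 7 was 0.19. Hoxa3, needed in the mouse for the organs of the pharyngeal arches and the carotid body, had log2 intensities of 5.62, 6.11, 5.50 and 6.07 in rescued cells, against 5.17, 5.34, 5.34 and 5.04 in knockout cells. The groups did not overlap; 4 rescued and 2 knockout arrays detected the probe. The gene rose, with means of 5.83 ± 0.31 and 5.22 ± 0.15 (SD, n = 4 each), a log2 difference of 0.60 with a standard error of 0.15 and an adjusted p of 0.0105. The difference was 0.21 without background correction (adjusted p = 0.0209), and the other Hoxa3 probe, detected on 1 rescued and 2 knockout arrays, differed by -0.23 and was not kept.

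Hoxa2, which gives the second pharyngeal arch its identity, was detected on all 8 arrays by both of its probes. The brighter had 9.12, 9.11, 9.07 and 9.27 in rescued cells and 9.04, 9.04, 8.83 and 8.78 in knockout cells, and the other had 8.78, 8.76, 8.74 and 8.92 in rescued cells and 8.70, 8.61, 8.65 and 8.62 in knockout cells. The groups did not overlap at either probe, but the differences of 0.22 and 0.15 did not pass (adjusted p = 0.0681 and 0.104).

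Hoxa4, a gene of the neck and upper trunk, had 8.14, 8.27, 7.71 and 8.25 in rescued cells and 7.82, 7.61, 7.88 and 7.58 in knockout cells. The groups overlapped through rescued replicate 3, and the difference of 0.37 did not pass (adjusted p = 0.0541). Without rescued replicate 3 it was 0.50 with an adjusted p of 0.00326. Hoxa7, which patterns thoracic vertebrae, had 8.81, 8.96, 8.48 and 8.73 in rescued cells and 8.49, 8.60, 8.52 and 8.61 in knockout cells, a difference of 0.19 that did not pass (adjusted p = 0.162) and that was 0.28 without rescued replicate 3 (adjusted p = 0.0185).

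Hoxa5, a regulator of lung and neck skeleton development, was level. It had 11.49, 11.67, 11.10 and 11.62 in rescued cells and 11.43, 11.54, 11.48 and 11.52 in knockout cells, a difference of -0.02 with a 95% interval of -0.29 to 0.25. Rescued replicate 3 had the lowest value of its group at 6 of the 7 kept Hoxa probes. Hoxa13, a gene of the hand, foot and urogenital tract, was detected on all 8 arrays by 1 of its 3 probes, at 6.75 ± 0.11 in rescued and 6.95 ± 0.08 in knockout cells (difference -0.20, adjusted p = 0.0686). That difference was -0.26 without rescued replicate 1 and passed. Its other probes were detected on no array, so whether this signal stems from Hoxa13 was not tested.

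The median difference varied between chromosomes, from -0.31 on chromosome 12 to 0.21 on chromosome 15. On chromosome 12, 48.6% of kept probes were called lower and 3.84% higher, and on chromosome 15, 7.23% lower and 39.8% higher. Why chromosomes differ was not tested. The kept probes of chromosome 6, which holds the Hoxa cluster, had a median difference of 0.11, and those of chromosome 15, which holds the Hoxc cluster, one of 0.21; chromosomes 11 (Hoxb) and 2 (Hoxd) both had 0.02. With each chromosome centred on its own median, the differences were 0.48 for Hoxa3 (adjusted p = 0.0368), 0.25 for Hoxa4 and 0.07 for Hoxa7, while Hoxa13 and Hoxc8 passed as lower, with -0.32 and -0.60 (adjusted p = 0.0172 and 0.0118). Those of Hoxd4 and Hoxd8 stayed at -2.54 and -2.20. Of the 8 tested probes of genes that flank the Hoxa cluster, 1 was higher (Hnrnpa2b1, 0.21) and 2 were lower (Skap2, -0.26, and the homeobox gene Evx1, -0.28). Each of these calls was lost on leaving out any of 6 single arrays in turn, with adjusted p up to 0.0951 for Skap2, 0.113 for Evx1 and 0.111 for Hnrnpa2b1.

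**Figure D4:**
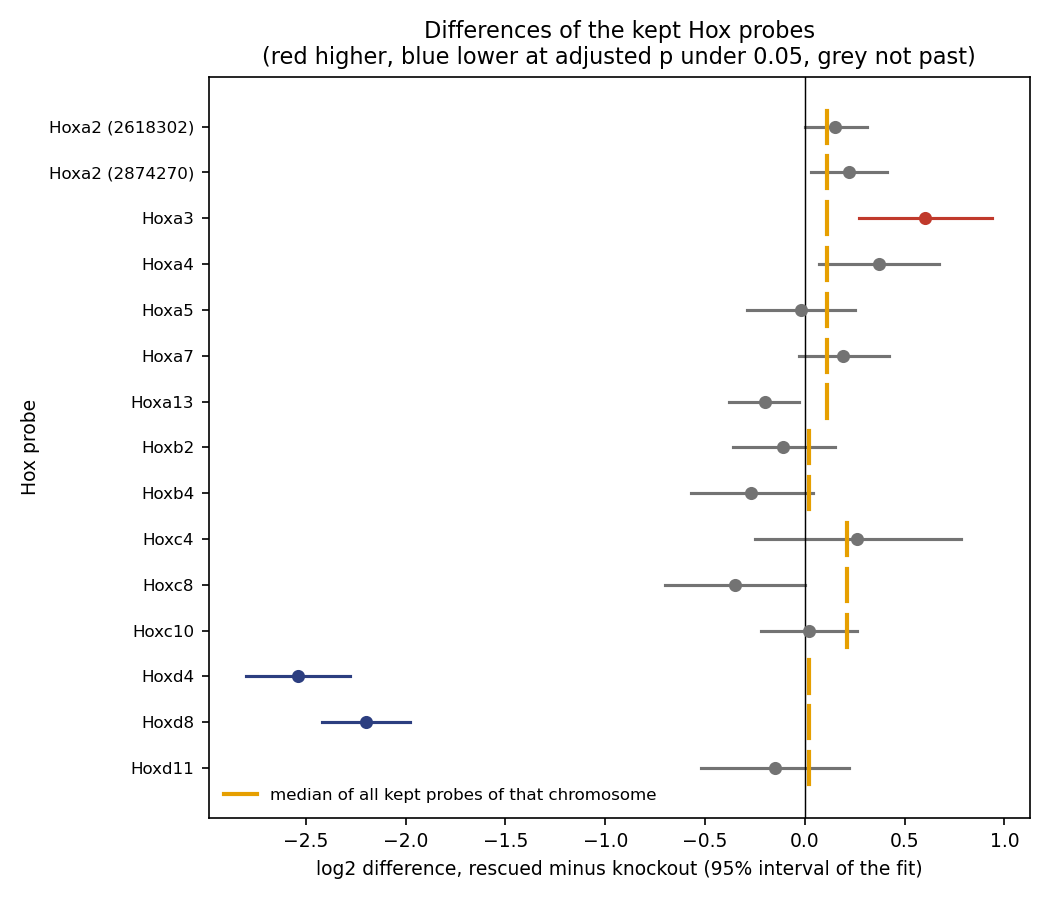
Log2 difference, rescued minus knockout, of the 15 kept Hox probes with the 95% interval of the fit, with an orange mark for the median of all kept probes on the same chromosome. Hoxd4 (-2.54) and Hoxd8 (-2.20) stand apart from the other 13, which lie between -0.35 and 0.60.

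No kept Hoxb gene passed the test. Hoxb2, a gene of the hindbrain and the second arch, ran from 8.73 to 9.18 in rescued cells and from 9.03 to 9.31 in knockout cells (difference -0.11, 95% interval -0.36 to 0.15). Hoxb4, a gene of the neck that also promotes the renewal of blood stem cells, had 8.04, 7.68, 8.05 and 8.05 in rescued cells and 8.29, 8.37, 8.36 and 7.86 in knockout cells. Its groups overlapped, and the difference was -0.27 (adjusted p = 0.148), or -0.39 without knockout replicate 4 (adjusted p = 0.0249). Neither probe had an unadjusted p under 0.05 in limma. Of the 7 tested probes of genes that flank the Hoxb cluster 0 passed in limma, and 0 had an unadjusted p under 0.05.

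Hoxb6 and Hoxb7, neighbours in the middle of the Hoxb cluster, were near the limit of detection. Hoxb6 had 5.64, 5.67, 5.05 and 5.14 in rescued cells, against 4.95, 4.74, 4.69 and 4.96 in knockout cells, and 2 rescued and 0 knockout arrays detected it. Hoxb7 had 5.13, 5.67, 4.86 and 5.11 in rescued cells, against 4.66, 4.77, 4.50 and 4.59 in knockout cells, with 1 rescued array detected. Neither was kept, though the groups did not overlap at either; with every probe tested their differences were 0.54 and 0.57 (adjusted p = 0.0335 and 0.0277). Hoxb5 was detected on 2 rescued and 1 knockout arrays, with means of 5.33 ± 0.47 and 5.24 ± 0.56, and the Hoxb3 probes differed by -0.17 to 0.05.

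The Hoxc cluster was the dimmest in detection, with no probe detected on all 8 arrays. Hoxc4 was detected on 3 rescued and 1 knockout arrays, at 5.45 ± 0.49 and 5.18 ± 0.27 (difference 0.26, adjusted p = 0.4). Hoxc8, a gene of the lower trunk, was detected on 1 rescued and 3 knockout arrays; it had 4.92, 4.92, 5.24 and 4.89 in rescued cells and 5.50, 5.32, 5.63 and 4.90 in knockout cells. Its groups overlapped through knockout replicate 4, and the difference of -0.35 (adjusted p = 0.103) was -0.50 without that array and then passed. Hoxc10, a hindlimb gene, was level at 5.37 ± 0.14 and 5.36 ± 0.18, with its other probe detected nowhere, and Hoxc13, a hair follicle gene, was detected on 1 array of each group (5.20 ± 0.14 in rescued and 5.09 ± 0.27 in knockout cells). Of the 8 tested probes that flank the Hoxc cluster 2 were higher, Cbx5 by 0.42 and Atp5g2 by 0.28, and 1 was lower, Calcoco1 by -0.41. Centring chromosome 15 took away the calls of Cbx5 (0.17, adjusted p = 0.117) and Atp5g2 (0.03, adjusted p = 0.797), and leaving out any of 6 single arrays took away that of Calcoco1.

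Paralogues can be set side by side across the clusters. In group 4, which every cluster has and in which all genes were kept, the log2 differences were 0.37 for Hoxa4, -0.27 for Hoxb4, 0.26 for Hoxc4 and -2.54 for Hoxd4, and only Hoxd4 passed. In group 8, Hoxb8 was detected on no array, Hoxc8 differed by -0.35 and Hoxd8 by -2.20. In group 3, Hoxa3 rose by 0.60 at its kept probe and differed by -0.23 at its other probe. Hoxd3 differed by -0.48 and the Hoxb3 probes by -0.17 to 0.05, and none of these was kept. These differences between paralogues were not tested against each other.

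HOX proteins bind DNA with partners of the PBX and MEIS families. Over all 8633 genes measured, counted by 1 probe each, 39.9% were called, 21.0% higher and 18.9% lower, with a median difference of 0.01, and the list counts that follow are to be read against these shares. Of 8 such cofactor genes measured, 3 rose and 1 fell, with a median of 0.35. Meis2 rose to 11.68 ± 0.07 in rescued cells, against 11.26 ± 0.07 in knockout cells (adjusted p = 0.00111), Pbx3 rose by 0.64, and Pknox2 by 1.31, though another of its kept probes differed by 0.15. Pbxip1, which encodes a protein that binds PBX factors, fell to 10.21 ± 0.11, against 11.16 ± 0.10 (adjusted p = 2.83e-05).

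Polycomb complexes keep Hox clusters silent, and MLL complexes keep them active. Of 22 polycomb genes measured, 9 rose and 1 fell, with a median of 0.15. Ezh2, the polycomb enzyme that methylates histone H3, rose to 10.39 ± 0.17 in rescued cells, against 9.77 ± 0.20 in knockout cells (adjusted p = 0.00337). Suz12, a partner of Ezh2, rose by 0.64, Phf19 by 0.82, Phc1 by 0.50 and Cbx7, a reader of the mark, by 0.96, while Pcgf3 fell by 0.28. Another list held genes of the MLL complexes and of the enzymes that remove the mark, and beside them Dot1l, Mllt1 and Mllt3. Of its 13 genes measured, 3 rose and 0 fell, with a median of 0.05: Psip1 by 0.63, the demethylase gene Kdm6a by 0.41 and Dpy30 by 0.39. Mllt3, counted as not past the test by its brightest probe, has kept probes whose differences run from -0.10 to 2.52. The call of Dpy30 was lost without rescued replicate 4, knockout replicate 1 or knockout replicate 3 (adjusted p up to 0.06).

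Retinoic acid is the signal that switches on low-numbered Hox genes in the embryo. Of 9 genes of its pathway measured, 2 rose and 2 fell, with a median of -0.02. Aldh1a2, which makes retinoic acid, fell to 5.36 ± 0.24 in rescued cells, against 7.19 ± 0.23 in knockout cells (adjusted p = 1.53e-05), and Crabp2, which carries it to its receptor, fell to 5.41 ± 0.26, against 6.88 ± 0.09. Both were detected on 3 rescued and 4 knockout arrays. Without background correction the log2 differences were -0.83 for Aldh1a2 and -0.63 for Crabp2, and the other kept Aldh1a2 probe differed by -0.88. The receptor gene Rxra rose by 0.62 and Aldh1a1 by 0.58; the call of Aldh1a1 was lost without rescued replicate 4 or knockout replicate 1. Cyp26a1 was detected on no array and Cyp26b1 on 2 knockout arrays; both degrade retinoic acid. Of the CDX, ParaHox and EVX genes only Evx1 and Cdx1 were measured, and Cdx1 differed by 0.05.

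Other regulators of position were counted in the same way. Among further homeobox and T-box genes 16 were measured, and of these 7 rose and 3 fell (median 0.17). Tbx20, a cardiac T-box gene, had 1 kept probe of 3. That probe had the pattern of Hoxd4 and Hoxd8, with 0 rescued and 4 knockout arrays detected. It was at least 2.28-fold lower in rescued cells (4.51 ± 0.01 and 6.39 ± 0.19, limma adjusted p = 9.55e-07). Tbx20, like Tfap2b, passed the detection filter through the knockout arrays, which left a fall as its possible call; without background correction the difference was -0.79. Irx5 rose by 1.42, Satb1 by 1.24 and Msx1 by 0.94. Of 13 neural crest factors measured, 3 rose and 7 fell (median -0.30), among them Tfap2b, at least 38-fold lower in rescued cells, Tfap2a, which fell by 3.94, and Foxc2, which fell by 0.89, while Hand2 rose by 1.23.

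Some markers of other cell types moved beside Hoxd4 and Hoxd8, and their part in these differences was not tested. Of 11 adventitial fibroblast markers measured, 6 fell and 1 rose, with Lum detected on no array; the summed intensity of the list ran from 6670 to 21300 on rescued and from 13800 to 18600 on knockout arrays. Of 5 endothelial markers measured, 4 rose (2440 to 4030 on rescued and 1620 to 2050 on knockout arrays); Vwf and Nos3 among them passed the filter through the rescued arrays, so a rise was their possible call. Of 5 leukocyte markers measured, 3 rose and 1 fell (1700 to 1790 and 880 to 987), and of 5 cartilage and bone markers, 3 rose (1880 to 6250 and 898 to 979), of which Col2a1 also passed the filter through the rescued arrays and Alpl lost its call on leaving out any of 5 single arrays. Acan, Col10a1, Col11a2, Matn1, Matn3, Ibsp, Sp7 and Comp of that list were detected on no array, and Sox9 and Col9a1 did not pass. Of 5 epithelial markers 2 rose, Krt13, which passed the filter through the rescued arrays, and Krt19 (1040 to 1400 and 542 to 618). Krt5, Krt14, Krt18, Cldn4, Esrp1 and Grhl2 were detected on no array, and Cdh1, Cldn7 and Krt4 did not pass. Of 2 striated muscle markers both fell, Acta1 and Myog (222 to 451 and 860 to 1030). The call of Myog was lost on leaving out any of 7 single arrays. Of the neuron and glia markers only Tubb3 was measured, and it differed by 0.07. Of 8 smooth muscle markers measured, 2 rose, Myocd and Smtn, and 3 fell, Actg2, Tagln and Tpm2 (64100 to 70100 and 69100 to 73100). The kept probes of Tpm2 ran from -0.66 to 0.92, and its direction turned when they were averaged.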

How the data were processed

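The authors deposited, for 25697 probes of an Illumina bead array, an intensity per array that is not normalized and a detection p-value, per the file headers. A table of log2 values of the same probes was also deposited; the sources used here do not say how it was made. It matched the values computed here to within 0.0266, and it served as an alternative.

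Here background was corrected with negative controls that neqc infers from detection p-values, followed by quantile normalization and log2 (offset 16), in limma 3.58.1 under R 4.3.3. A probe was kept when at least 4 of the 8 arrays gave it a detection p under 0.05, which left 12658. Differences are rescued minus knockout from lmFit and eBayes, with Benjamini-Hochberg adjustment over all kept probes and a threshold of 0.05; no p-value was adjusted over the Hox probes alone. The number of arrays limits the precision. Where no array of the dimmer group detected a probe, the fold is a bound: the brighter mean is set against each dim array's lowest detected signal, or against the probe's value where that is higher.

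Probe symbols came from the platform annotation, updated through gene identifiers in a RefSeq table of GRCm38.p6, which matched 23962 of 23978 named probes; 0 probes had several symbols and 1719 had none. In the lists a gene is its kept probe with the highest mean. Every kept Hox probe and every Hox probe detected on 1 to 3 arrays was to be named, with up to 4 genes of smallest p per list and up to 4 of the genes that flank a cluster, the other flanking genes being counted only. Genes named beyond these were chosen after their values were seen. The members and lists were chosen with earlier results of these data known.

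Replicate numbers were shared by the groups, but same-numbered arrays did not deviate together (correlations from -0.08 to -0.00), so no pairing was used. Slides and scan dates are not recorded in the files used, and no batch was tested.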

Additional observations from a re-analysis of the deposited data

Results flagged for a closer look

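Among 48 groups of 4 arrays, over the 24 Hox probes detected on at least 1 array, 4 had 1 array set apart from the others by more than Dixon's 95% critical value for 4 samples allows, where chance gives about 1 in 20. Hoxb4 was low on rescued replicate 2, at 7.68 with its nearest neighbour at 8.04. The same gene was low on knockout replicate 4, at 7.86 with the nearest at 8.29. Hoxb5 was high on knockout replicate 3, at 6.07 where the group mean was 5.24, and that array alone of the knockout group detected it. Hoxc8 was high on rescued replicate 3, at 5.24 with the nearest at 4.92, and that array alone of the rescued group detected it. Without knockout replicate 4 Hoxb4 passed as lower in rescued cells, with a log2 difference of -0.39.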

How the results depend on the processing

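Hoxd4 and Hoxd8 passed as lower under all 23 alternatives in which they were tested, with log2 differences from -2.62 to -1.14 and from -2.28 to -0.96. Requiring detection on all 8 arrays leaves both out. Where detection on at least 4 arrays was required, both passed the filter through the knockout arrays, so a fall was the only call open to them. With no detection filter the differences were -2.54 and -2.20 (limma adjusted p = 7.05e-07 and 5.65e-07). Of the 23 alternatives, some add little for these genes. The adjusted p under 0.01 and the 1.5-fold minimum were applied to the main fit. Each gene has 1 probe, so averaging probes left its difference as it was. The deposited log2 values matched those computed here to within 0.0266. Hoxa3 kept its direction and passed in 21 of the 22 in which it was tested (0.21 to 0.71). Requiring detection on all 8 arrays left it out, as did a detection p under 0.01 on at least 4 arrays. Under those filters the 1 Hox probe higher in rescued cells was that of Hoxa4 (limma adjusted p = 0.0464 and 0.0469). Over the 15 kept Hox probes no called difference changed sign. The number of Hox probes higher in rescued cells was 1, and it was 3 without background correction, with no detection filter, with detection on at least 1 array and with array weights; it was 2 with normexp, with median scaling, with cyclic loess and with the trended variance, and 0 at an adjusted p under 0.01 (4 at an unadjusted p under 0.05). The number lower was 2, and it was 3 with no detection filter, with detection on at least 1 array and with array weights, 4 with chromosome centring and 0 with detection on all 8 arrays in limma, where 1 had an unadjusted p under 0.05. Hoxa4 was among the added rises except under the looser filters, which added Hoxb6 and Hoxb7; the cause was not tested. With single arrays left out the higher count ran from 1 to 3, with 3 without rescued replicate 3, and the lower count from 2 to 4, with 4 without rescued replicate 1 or knockout replicate 4. Over all probes 4906 passed, 4141 to 5056 with an array left out, 3037 at an adjusted p under 0.01 and 1765 with at least 1.5-fold. With the replicate number as a block, 4206 probes passed, with 1 Hox probe higher and 3 lower, Hoxc8 being the added one. No array correlated best with its own number, which cannot show whether same-numbered arrays were handled together. Tpm2 among the smooth muscle markers turned to 0.13 when its probes were averaged. Of the genes that flank the clusters, Atp5g2 and Cbx5 lost their calls with chromosome centring. The kept probes' median moved by at most 0.033 between scalings. Signal over background limits what can be said of the Hox probes below detection.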
